A study of Mus musculus with 6 samples.

Results

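NRF2, encoded by Nfe2l2, and the genes of its antioxidant programme were followed here in 10 genes chosen by name: the factor itself, its repressor Keap1, the target genes Nqo1, Hmox1, Slc7a11, Gclc, Gclm, Txnrd1 and Srxn1, and the thioredoxin inhibitor Txnip. All 10 were found in the count table, which lists 21936 genes, and all 10 were among the 11809 that passed a filter on low counts. The samples are polyadenylated RNA of PAM212, a transformed mouse keratinocyte line, in 3 libraries of cells infected with a lentivirus that carries mouse miR-28-3p and 3 control libraries of PAM212 cells labelled as not treated. The series title and sample labels speak of keratinocytes, and the design line of melanocytes. All were grown in DMEM with 10% FBS. The labels do not say whether control cells received a virus without the microRNA, so infection and the microRNA cannot be told apart. They do not tie the 3 libraries of either group to separate cultures, and the p-values then measure only the spread between these libraries, which may be technical.

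In resting cells KEAP1 holds NRF2 in the cytoplasm and hands it to the CUL3 ubiquitin ligase for destruction. Oxidants and electrophiles modify KEAP1, NRF2 escapes, and it binds with a small MAF protein to antioxidant response elements near genes for glutathione synthesis, the thioredoxin system, quinone reduction and haem breakdown. In skin the pathway is known for protecting keratinocytes against ultraviolet light and chemical stress. In a human breast cancer line miR-28 has been described as lowering NRF2 mRNA.

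The counted reads were 14309898 to 16383374 with overexpression and 14706283 to 15385151 in controls. Of 10 keratinocyte markers, Krt5 and Dsc3 had 0 counts in every library and Trp63 averaged 0.110 ± 0.190 CPM (counts relative to library size, scaled with TMM) with overexpression and 1.13 ± 0.259 CPM in controls (SD, n = 3 each). Dsg3 averaged 0.285 ± 0.136 CPM with overexpression and 2.79 ± 0.520 CPM in controls. The other 6 were detected in every library: Krt14, a basal keratin, averaged 39.1 ± 3.14 CPM with overexpression and 30.5 ± 2.52 CPM in controls, and the integrin genes Itga6 and Itgb4 averaged 328 ± 2.61 and 141 ± 3.49 CPM with overexpression and 139 ± 1.60 and 197 ± 7.63 CPM in controls. The keratinocyte label thus met a mixed pattern, with some defining genes at or near 0 and others abundant. The 10 summed to 315 to 320 FPKM (reads per kilobase of gene length and library total, as deposited) with overexpression and 285.5 to 289 FPKM in controls. Melanocyte markers summed to 1.75 to 1.80 FPKM with overexpression and 1.83 to 2.27 FPKM in controls, with 1 of 8, Tyr, at 0. Of these, Tyrp1 had 7, 18 and 15 counts and Dct 10, 8 and 13 counts in the overexpression libraries, and both had 0 counts in every control library. Pmel and Mitf went the other way, with 38 and 219 counts summed over the overexpression libraries, against 87 and 329 over the control libraries. Summed likewise, Mlana had 9 against 3 counts, Sox10 6 against 1 and Slc45a2 1 against 0. Fibroblast markers summed to 1.58 to 1.66 FPKM with overexpression and 4.57 to 5.50 FPKM in controls, with 2 of 8, Thy1 and Lum, at 0. Blood cell markers summed to at most 0.338 FPKM with overexpression and 0.412 FPKM in controls, with 3 of 6 at 0. The part of these markers in the results was not tested. In bulk RNA, fewer cells of a type and less RNA per cell cannot be told apart. Gene length moved with the groups as well: averaged over counted reads, the gene hit was 6021 to 6050 bases long in the overexpression libraries and 5091 to 5119 bases in the control libraries. Results are therefore also given with a smooth trend of the values on gene length taken out, called here the length trend removed.

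The mouse microRNA is encoded by Mir28a on chromosome 16 of GRCm38.p6. The mature strands are shown as the reagent behind the comparison, with the seed (bases 2 to 8) in capitals, from RefSeq.
mmu-miR-28a-3p: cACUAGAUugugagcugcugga
mmu-miR-28a-5p: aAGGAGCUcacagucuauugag
The 3p strand lies at chr16:24827908-24827929 and the 5p strand at chr16:24827868-24827889, both on the plus strand. The 3p strand is the one the labels name. The complement of its seed, ATCTAGT, was found 0 times in the longest annotated 3' UTR of each of the 10 genes, and 6.49% of 11656 tested genes with such a UTR hold it. The complement of the 5p seed, AGCTCCT, which 15.8% of those genes hold, stands in the last exon of Slc7a11 and of Txnrd1 and at 2 overlapping windows in the last exon of Srxn1. These 4 windows are shown because they are the only matches to either strand among the 10 genes, with the match in capitals.
Slc7a11: caatgcacctaAGCTCCTtccaagacccc
Txnrd1: cggtgtagtttAGCTCCTaggttacatga
Srxn1, first: tgggttagctaAGCTCCTttgagcagctc
Srxn1, second: ctcctttgagcAGCTCCTctgatgtggcc
In GRCm38 the matches are chr3:50368770-50368776 on the minus strand for Slc7a11, chr10:82897148-82897154 on the plus strand for Txnrd1, and chr2:152110083-152110089 and chr2:152110096-152110102 on the plus strand for Srxn1. The 3 genes differed in what they did, since Slc7a11 was lower with overexpression, Txnrd1 higher and Srxn1 not called in either direction. The Nfe2l2 UTR, 448 bases long, holds neither match. A match is a description of the letters and not a site of action.

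Of the 10 genes, 3 were higher with miR-28-3p overexpression (Gclc, Gclm and Txnrd1), 5 were lower (Nfe2l2, Keap1, Nqo1, Slc7a11 and Txnip), and Hmox1 and Srxn1 did not pass the test. The test was edgeR's quasi-likelihood F test at an adjusted p (Benjamini-Hochberg) under 0.05, and it called 86.0% of all tested genes, 42.1% higher and 43.9% lower, so that a call alone does not set these genes apart. Of the calls over all genes 49.0% were higher, and 38.6% with upper quartile scaling, under which 3 of the 10 genes were called higher and 7 lower. Taken without sign, the log2 fold changes had a median of 1.13 over the 10 genes and 0.72 over all genes tested. The 10 genes were chosen with earlier results of these data known, so this difference is a description and does not set them apart. All overexpression libraries lay above all control libraries for 3 of the 10 (42.2% of all tested genes) and below them for 5 (43.8%). Against a minimum change of 1.5-fold, which 50.4% of all tested genes passed, 7 of the 10 were called, 3 higher (23.4% of all tested genes) and 4 lower (27.0%), Keap1 being the one no longer called. With the length trend removed 5 were called higher and 4 lower, against 43.0% and 42.3% of all genes. The changes ran in opposite directions within the glutathione branch and within the thioredoxin branch, as described next.

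**Figure D1:**
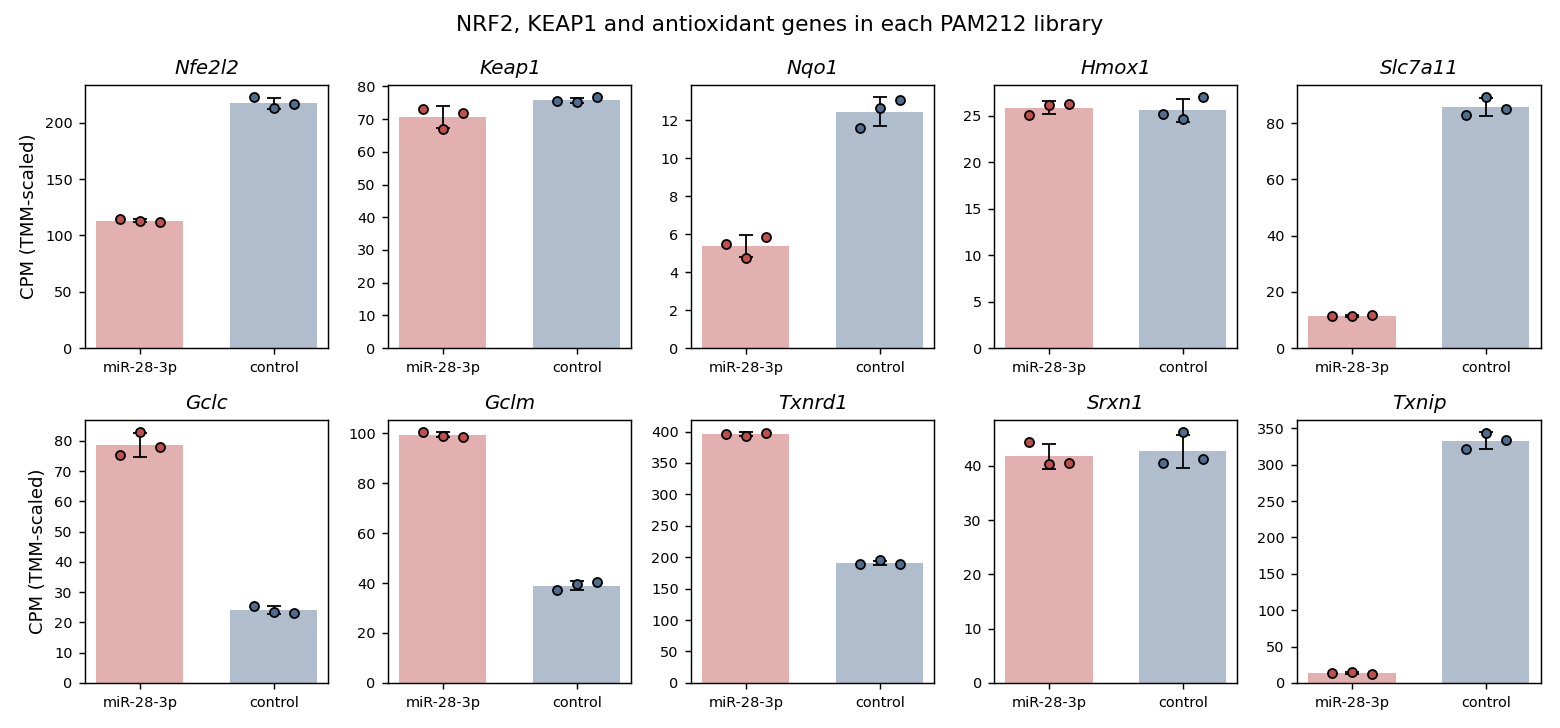
Level of each gene in every library, in CPM scaled with TMM, for miR-28-3p overexpression (left) and control (right). Points are libraries, bars the mean and whiskers the SD (n = 3); the groups are apart in 8 of the 10 panels and overlap for Hmox1 and Srxn1.

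The regulator and its repressor came first. Nfe2l2 (ENSMUSG00000015839, chromosome 2 of GRCm38, minus strand) had 115, 113 and 112 CPM in the overexpression libraries, against 222, 213 and 216 CPM in the control libraries. All overexpression libraries lay at about the same level, well below every control library. The fall was 1.92-fold, with a log2 fold change of -0.94 ± 0.033 (standard error from the F statistic, n = 3 against 3, edgeR adjusted p = 1.87e-34), and the call held under all 16 alternative settings, from -1.17 to -0.80. Keap1, the adaptor that presents NRF2 to CUL3, had 73.2, 66.9 and 71.8 CPM with overexpression, against 75.4, 75.3 and 76.6 CPM in controls. The groups did not overlap, but the gap between them was narrower than the range of the overexpression libraries. Its log2 fold change of -0.10 ± 0.048 passed the threshold at an edgeR adjusted p of 0.0440, and the call was lost under 10 of the 16 alternatives. Leaving out overexpression replicate 2 reduced it to -0.06 (edgeR adjusted p = 0.313), and DESeq2 gave -0.09 (adjusted p = 0.167). It was called with a larger size with upper quartile scaling (-0.33, edgeR adjusted p = 8.15e-09), with library totals (-0.20, edgeR adjusted p = 0.000204) and in limma on log2(FPKM + 1) (-0.18, adjusted p = 0.00215). In counts per base of gene length, the ratio of Nfe2l2 to Keap1 within a library was 1.94, 2.09 and 1.93 with overexpression, against 3.65, 3.50 and 3.49 in controls. This ratio does not depend on how libraries are scaled to each other. The gene length trend, which differed between the groups, was not removed from it or from the other ratios given here. Its groups did not overlap (difference of -0.84 on the log2 scale, exact two-sided permutation p = 0.1, which is the smallest that 3 against 3 can give, and 0.1 after adjustment over the 5 ratios examined).

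Glutathione synthesis was split between its supply of cystine and its first enzyme. Slc7a11, the light chain of the cystine and glutamate exchanger, is a target of both NRF2 and the stress factor ATF4. It had 11.2, 11.3 and 11.7 CPM with overexpression, against 83.1, 89.1 and 85.1 CPM in controls, and the lowest control library was far above the highest overexpression library. The fall was 7.50-fold (log2 fold change -2.91 ± 0.069, SE, n = 3 against 3, edgeR adjusted p = 1.05e-43), and limma on log2(FPKM + 1), a scale that understates changes of low genes, gave -2.04. Slc3a2, the heavy chain that brings the exchanger to the membrane, fell as well, but only 2.01-fold, with 159.8, 165.0 and 157.5 CPM with overexpression, against 316.9, 330.8 and 319.5 CPM in controls. The ratio of Slc7a11 to Slc3a2 per base was 0.0180 ± 0.000803 with overexpression and 0.0674 ± 0.000927 in controls (SD, n = 3 each; exact permutation p = 0.1, adjusted 0.1).

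Gclc and Gclm moved the other way. They encode the catalytic and the modifier subunit of glutamate-cysteine ligase, the rate-limiting enzyme of glutathione synthesis. Gclc had 75.2, 82.9 and 78.0 CPM with overexpression, against 25.4, 23.5 and 23.2 CPM in controls, a 3.27-fold rise (log2 fold change 1.71 ± 0.061, SE, edgeR adjusted p = 3.01e-34). Gclm had 100.5, 99.1 and 98.6 CPM with overexpression, against 37.1, 39.6 and 40.3 CPM in controls, a 2.55-fold rise (1.35 ± 0.051, edgeR adjusted p = 5.83e-33). For both subunits every overexpression library stood above every control library by more than the spread within either group. The catalytic subunit rose by more than the modifier: the ratio of Gclm to Gclc per base was 0.800, 0.716 and 0.757 with overexpression, against 0.874, 1.01 and 1.04 in controls, without overlap (exact permutation p = 0.1, adjusted 0.1).

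In the thioredoxin branch the reductase rose and the inhibitor fell. Txnrd1, the cytosolic thioredoxin reductase, had 396.9, 392.5 and 398.4 CPM with overexpression, against 189.8, 194.9 and 189.0 CPM in controls. That is a 2.07-fold rise with little spread in either group (log2 fold change 1.05 ± 0.027, SE, n = 3 against 3, edgeR adjusted p = 5.08e-42). Srxn1, sulfiredoxin, which repairs overoxidised peroxiredoxins, had 44.5, 40.3 and 40.5 CPM with overexpression, against 40.6, 46.2 and 41.3 CPM in controls. The groups overlapped, and the log2 fold change of -0.03 had a 95% interval of -0.16 to 0.09 (edgeR adjusted p = 0.618), under TMM scaling. Relative to the gene of its substrate, Prdx1, Srxn1 per base stood at 0.0725 ± 0.00432 with overexpression and 0.0942 ± 0.00542 in controls (SD, n = 3 each; exact permutation p = 0.1, adjusted 0.1).

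Txnip had the largest change of the 10 genes. It encodes an arrestin-like protein that binds and inhibits thioredoxin and restrains glucose uptake, and its transcription is known to follow glucose through the factors MondoA (Mlxip) and Mlx. It had 14.1, 14.5 and 11.9 CPM with overexpression, against 321, 344 and 335 CPM in controls. No overexpression library came near a control library. The fall was 24.8-fold (95% interval of the remaining level 0.0377 to 0.0432 of control; log2 fold change -4.63 ± 0.049, SE, edgeR adjusted p = 2.97e-62), and 152 of the 11809 tested genes had a lower log2 fold change. Together with the rise of Txnrd1 this turned the ratio of the genes over: Txnip per base was 0.0773 ± 0.00851 times Txnrd1 with overexpression and 3.95 ± 0.0994 times Txnrd1 in controls (SD, n = 3 each; exact permutation p = 0.1, adjusted 0.1). The annotated antisense gene Gm15441 shares 606 exon bases with Txnip, and no source says whether the counting used strand, so reads of the pair cannot be told apart. The same holds for Keap1, which shares 510 exon bases with the antisense gene Gm16754, and for Gclm, which shares 296 with Gm17494 on the other strand and 244 with the pseudogene Gm6061.

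**Figure D2:**
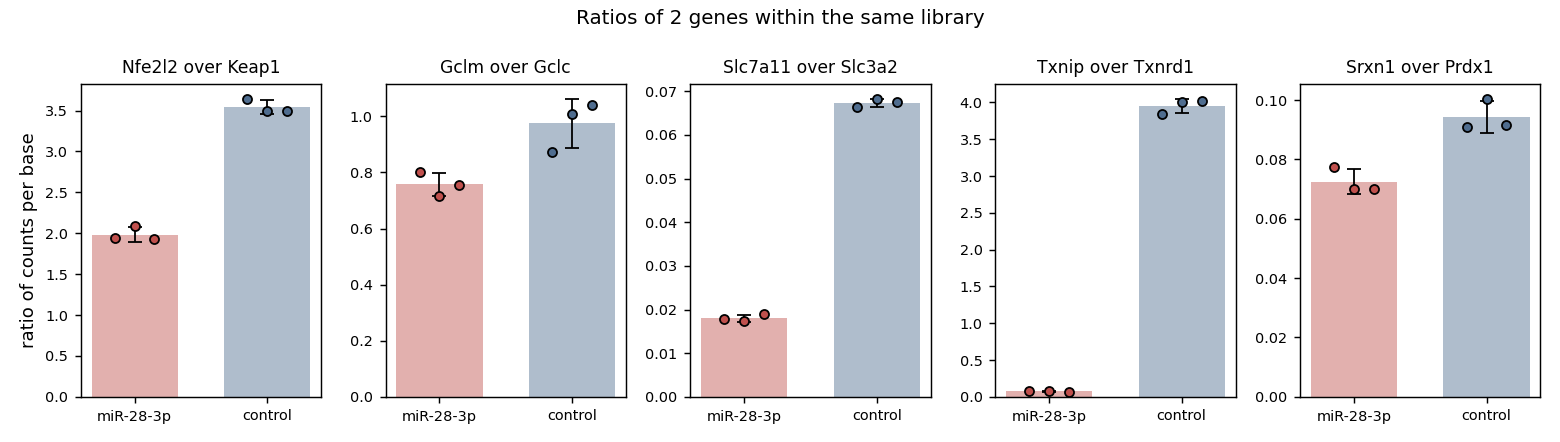
Ratio of counts per base between 2 genes of the same library, for miR-28-3p overexpression (left) and control (right). Points are libraries, bars the mean and whiskers the SD (n = 3); in all 5 panels the groups are apart, and Txnip over Txnrd1 shows the widest gap, 0.0773 with overexpression and 3.95 in controls.

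The genes of quinone reduction and haem breakdown were low to moderate in level. Nqo1, the quinone reductase often taken as a reporter of NRF2 activity, had 5.48, 4.75 and 5.87 CPM with overexpression, against 11.6, 12.7 and 13.1 CPM in controls. Its groups stood apart, with a 2.32-fold fall (log2 fold change -1.21 ± 0.14, SE, n = 3 against 3, edgeR adjusted p = 3.67e-12). The call held in all 16 alternatives, and the value was -0.61 with the length trend removed and -1.44 with upper quartile scaling. Hmox1, haem oxygenase 1, which opens the haem ring, had 25.1, 26.2 and 26.3 CPM with overexpression, against 25.2, 24.7 and 27.0 CPM in controls. These ranges overlapped almost fully. Its log2 fold change of 0.02 had a 95% interval of -0.14 to 0.17 (edgeR adjusted p = 0.858). The answer for Hmox1 and Srxn1 rests on the scaling: upper quartile scaling put them at -0.21 and -0.26, both called lower, and removal of the gene length trend put them at 0.57 and 0.30, both called higher.

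**Figure D3:**
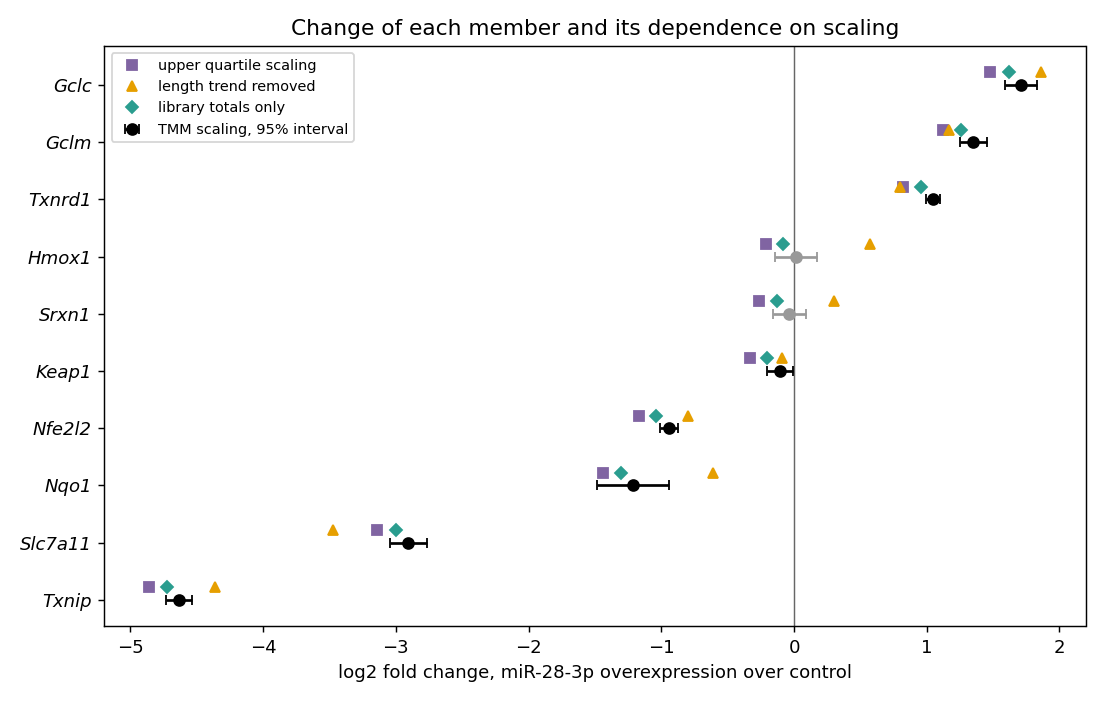
Log2 fold change of each gene, miR-28-3p overexpression over control. Circles with whiskers give the TMM-scaled estimate and its 95% interval (black where called, grey where not), and the small markers above them 3 other settings; Hmox1 and Srxn1 change side between settings, and Txnip, Slc7a11, Nqo1 and Nfe2l2 stay left of 0 and Gclc, Gclm and Txnrd1 right of it.

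Levels between genes were compared in the deposited FPKM, which are per kilobase of gene length. With overexpression the order was Txnrd1 (54.1 FPKM), Nfe2l2 (28.9), Gclc (20.2), Gclm (15.3), Keap1 (14.6), Srxn1 (14.3), Hmox1 (14.3), Txnip (4.18), Nqo1 (3.35) and Slc7a11 (0.794). In controls it was Txnip (110), Nfe2l2 (59.1), Txnrd1 (27.9), Keap1 (16.7), Srxn1 (15.6), Hmox1 (15.1), Nqo1 (8.28), Gclc (6.59), Gclm (6.40) and Slc7a11 (6.36). Txnip thus stood first in controls and eighth with overexpression. Neighbours whose libraries overlapped were Keap1 with Srxn1 and Srxn1 with Hmox1 in both groups, and in controls also Gclc with Gclm and Gclm with Slc7a11.

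Promoters of 8 of the 10 genes were found in RefSeq for GRCm38.p6, 10 windows of 250 bases before to 50 bases after a start site; Hmox1 and Gclc were not matched. They were searched on both strands for TGACNNNGC, the core of the antioxidant response element, and for CACGNG followed after 5 bases by a second CACGNG, a pair of E-box-like elements as in the carbohydrate response element bound by MondoA and Mlx. The first was found for 4 of the 8 genes (Nfe2l2, Gclm, Srxn1 and 1 of 3 start sites of Txnrd1), where 14.0% of 27025 genes hold it. The second was found for Txnip alone among the 8, and in 16 of 32851 promoters in all. The promoters shown are those of the gene with the largest fall, of the regulator and of the 2 called-higher genes with the first match, with the match in capitals and the gene strand running 5' to 3'.
Txnip: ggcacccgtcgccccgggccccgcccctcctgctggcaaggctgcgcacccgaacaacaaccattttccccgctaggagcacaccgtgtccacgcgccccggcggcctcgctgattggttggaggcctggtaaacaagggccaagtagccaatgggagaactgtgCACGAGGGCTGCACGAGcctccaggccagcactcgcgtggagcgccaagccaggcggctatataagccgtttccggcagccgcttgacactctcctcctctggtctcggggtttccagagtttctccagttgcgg
Nfe2l2: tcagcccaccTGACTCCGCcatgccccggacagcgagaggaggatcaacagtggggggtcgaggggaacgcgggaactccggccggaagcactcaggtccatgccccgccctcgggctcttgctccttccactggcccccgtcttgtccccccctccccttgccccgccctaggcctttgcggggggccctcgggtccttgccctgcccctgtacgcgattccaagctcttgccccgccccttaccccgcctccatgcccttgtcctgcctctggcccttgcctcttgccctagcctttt
Gclm: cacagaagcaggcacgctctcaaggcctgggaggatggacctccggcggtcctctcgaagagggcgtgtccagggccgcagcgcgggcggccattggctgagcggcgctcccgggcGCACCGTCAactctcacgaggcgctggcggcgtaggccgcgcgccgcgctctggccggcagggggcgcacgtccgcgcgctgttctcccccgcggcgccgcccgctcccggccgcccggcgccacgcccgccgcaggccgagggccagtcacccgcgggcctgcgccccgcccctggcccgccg
Txnrd1: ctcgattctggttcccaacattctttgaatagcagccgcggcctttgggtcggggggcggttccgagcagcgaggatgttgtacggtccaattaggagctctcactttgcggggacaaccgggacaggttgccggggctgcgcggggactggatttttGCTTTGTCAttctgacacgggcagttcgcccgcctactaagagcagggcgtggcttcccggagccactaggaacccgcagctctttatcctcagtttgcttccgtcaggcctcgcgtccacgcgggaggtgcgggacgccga
The windows are chr3:96557707-96558006 (plus strand) for Txnip, chr2:75704614-75704913 (minus strand) for Nfe2l2, chr3:122245307-122245606 (plus) for Gclm and chr10:82858956-82859255 (plus) for Txnrd1. The Txnip match, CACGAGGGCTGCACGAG, lies at -85 to -69 from the start site. Genes with the first match went in both directions, Gclm and Txnrd1 higher and Nfe2l2 lower, and Srxn1 was not called. Keap1, Nqo1, Slc7a11 and Txnip had no such match in these windows and were called lower, Keap1 only in some settings. Elements farther away were not searched.

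Around these genes, 104 others of the pathway were listed by role, and 93 passed the filter. Of those, 31 rose and 54 fell, against 42.1% higher and 43.9% lower over all tested genes, whose median log2 fold change was -0.03. With upper quartile scaling 21 rose and 64 fell, where 3961 and 6288 of the 11809 tested genes did. The upper quartile counts of single lists below are to be read beside those all-gene counts. The lists too were chosen with earlier results of these data known, so their counts and medians only describe. Among the partners, repressors and degradation factors of NRF2, 8 of 18 rose and 8 fell, the median log2 fold change being 0.03, the mean -0.14, and the median -0.20 with upper quartile scaling, under which 7 rose and 11 fell. With the length trend removed 7 rose and 9 fell (median -0.14), where 43.0% and 42.3% of all tested genes did. Sqstm1, the autophagy receptor p62 that can sequester KEAP1, fell 3.51-fold to 460.7 ± 13.6 CPM with overexpression, against 1619 ± 16.2 CPM in controls (SD, n = 3 each). Nfe2l1, an NRF2 relative that senses proteasome function, averaged 318 ± 3.19 CPM with overexpression and 575 ± 14.3 CPM in controls, and fell. Cul3, the ligase scaffold, averaged 222 ± 1.55 CPM with overexpression and 163 ± 3.79 CPM in controls, a call of higher. Pgam5, a mitochondrial phosphatase that binds KEAP1, rose to 117.5 ± 4.26 CPM with overexpression, against 68.0 ± 1.83 CPM in controls, and the acetyltransferase gene Ep300 rose most, to 99.99 ± 0.873 CPM with overexpression, against 40.0 ± 3.18 CPM in controls. The log2 fold change of Ep300 was 1.32 under TMM scaling and 0.75 with the length trend removed.

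**Figure D4:**
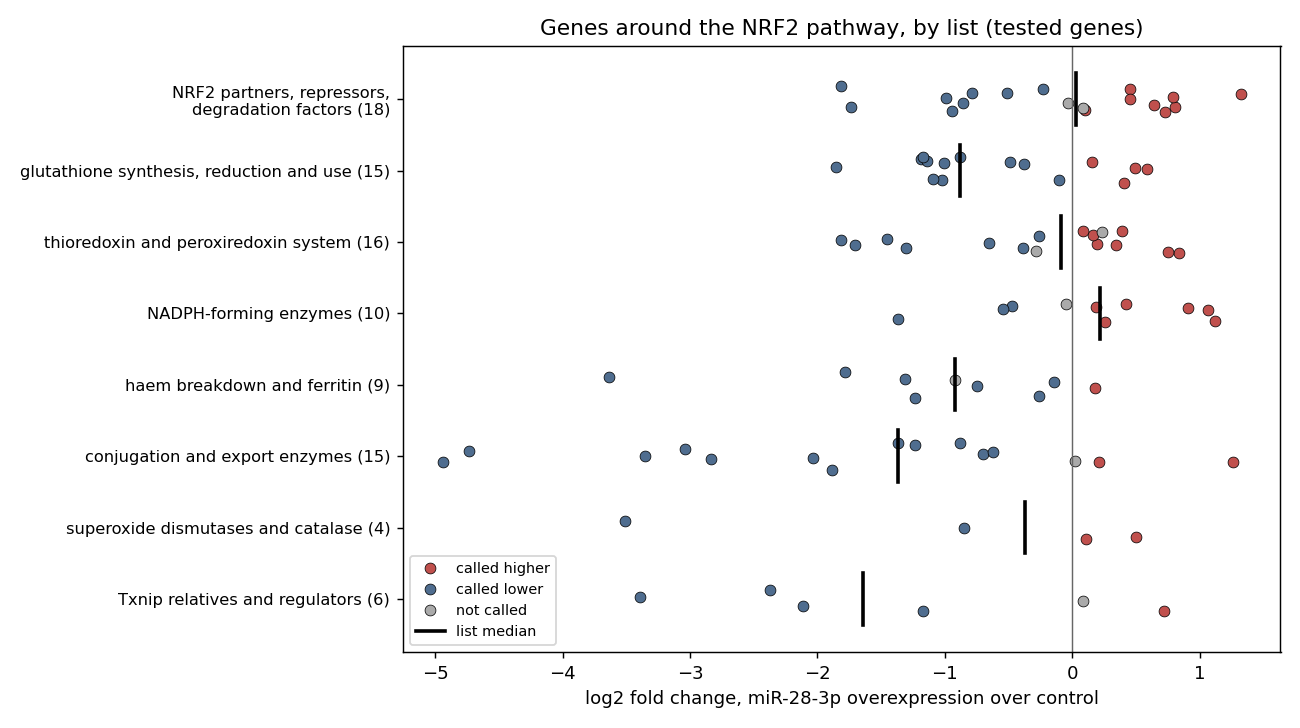
Log2 fold change, miR-28-3p overexpression over control, of the 93 tested genes in 8 lists around the pathway, with the number tested in brackets. Red points were called higher, blue lower and grey not called, and the bar is the list median; conjugation and export enzymes reach -4.94 and have a median of -1.37.

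Of 15 tested genes for glutathione, 11 fell and 4 rose (43.9% and 42.1% over all tested genes), with a median log2 fold change of -0.88. Once the length trend was removed 5 were higher and 8 lower, with a median of -0.61. Gpx4, the peroxidase that reduces lipid hydroperoxides, fell most, 3.61-fold to 202 ± 2.33 CPM with overexpression, against 728 ± 19.5 CPM in controls (SD, n = 3 each). Gss, the last enzyme of glutathione synthesis, fell 2.03-fold, to 11.98 ± 1.485 CPM with overexpression, against 24.4 ± 0.274 CPM in controls. Gsr, which recycles oxidised glutathione, averaged 187 ± 0.951 CPM with overexpression and 242 ± 6.31 CPM in controls, called lower under TMM scaling and not with the length trend removed (-0.03). Gpx1 was called lower by a small step, 277 ± 8.54 CPM with overexpression, against 297 ± 8.20 CPM in controls, and was called higher with the length trend removed (0.53). Ggct, an enzyme of glutathione turnover, rose most in the list, to 18.2 ± 1.26 CPM with overexpression, against 12.1 ± 1.33 CPM in controls. In the thioredoxin and peroxiredoxin list 7 of 16 rose and 7 fell, near the 42.1% and 43.9% over all tested genes. The median was -0.09, and 0.06 with the length trend removed, while 4 rose and 9 fell with upper quartile scaling. Prdx1 and Txn1 were called higher, at 621 ± 2.47 and 395 ± 12.2 CPM with overexpression, against 489 ± 6.79 and 346 ± 9.34 CPM in controls, though Txn1, at 0.19, turned to -0.04 with upper quartile scaling and stood at 0.94 with the length trend removed. Prdx5 and Prdx2 fell to 122 ± 2.01 and 294 ± 2.40 CPM with overexpression, against 301 ± 10.6 and 462 ± 10.96 CPM in controls. Sesn2, a stress-induced sestrin, fell most, to 7.70 ± 1.16 CPM with overexpression, against 27.1 ± 2.01 CPM in controls, and Txnrd2, the mitochondrial reductase, rose most, to 24.4 ± 1.08 CPM with overexpression, against 13.7 ± 0.923 CPM in controls.

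NADPH feeds both systems. Among its forming enzymes 6 of 10 tested genes rose and 3 fell (42.1% and 43.9% over all tested genes), with a median of 0.22. With upper quartile scaling 4 rose and 4 fell, and the median was -0.01. With the length trend removed 6 rose and 3 fell (median 0.33), where 43.0% and 42.3% of all tested genes did. Me1, malic enzyme, rose most, to 81.9 ± 3.38 CPM with overexpression, against 37.7 ± 1.81 CPM in controls (SD, n = 3 each), and Nadk, NAD kinase, rose to 302 ± 7.18 CPM with overexpression, against 161 ± 4.65 CPM in controls. Pgls, of the pentose phosphate pathway, fell most, to 93.2 ± 1.12 CPM with overexpression, against 241 ± 10.6 CPM in controls. Taldo1 and Idh2 were called lower, at 113 ± 3.79 and 144 ± 1.57 CPM with overexpression, against 157 ± 7.60 and 210 ± 3.91 CPM in controls, and Taldo1 was not called with the length trend removed (-0.01). Idh1 was at 181 ± 3.82 CPM with overexpression and 187 ± 2.37 CPM in controls, not called under TMM scaling, and it changed sign with the length trend removed.

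The haem and ferritin list had 1 of 9 genes higher and 7 lower (42.1% and 43.9% over all tested genes), with a median of -0.92. With upper quartile scaling 0 were higher and 7 lower. With the length trend removed 1 was higher and 6 lower (median -0.65), where 43.0% and 42.3% of all tested genes were. Blvrb, a biliverdin reductase, fell 12.4-fold to 2.10 ± 0.637 CPM with overexpression, against 25.9 ± 0.367 CPM in controls (SD, n = 3 each). The ferritin genes Fth1 and Ftl1 fell 2.35-fold and 2.48-fold, Fth1 to 1958 ± 11.3 CPM with overexpression, against 4600 ± 76.5 CPM in controls, and the log2 fold change of Ftl1 was -1.31, or -0.65 with the length trend removed. Hmox2, the constitutive haem oxygenase, was called lower by a small step, 44.6 ± 0.489 CPM with overexpression, against 49.3 ± 0.905 CPM in controls, and called higher with the length trend removed (0.31). Slc48a1, a haem transporter, was called lower at -0.26 and stood at 0.09, not called, with the length trend removed. Fech, ferrochelatase, was called higher at 0.18 and lower, at -0.38, with the length trend removed. Processed pseudogenes are common for ferritin, thioredoxin, peroxiredoxin and Gpx4 genes, and no source says how reads shared with them were counted.

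Conjugation and export enzymes fell in most cases. Of 15 tested, 12 fell and 2 rose (43.9% and 42.1% over all tested genes), with a median of -1.37. With the length trend removed 12 fell and 1 rose, where 42.3% of all tested genes fell and 43.0% rose. The list median was then -0.98. Aldh3a1, an aldehyde dehydrogenase of cornea and other surface epithelia, fell 30.7-fold to 3.22 ± 0.351 CPM with overexpression, against 98.9 ± 5.42 CPM in controls (SD, n = 3 each). Mgst1, a microsomal glutathione transferase, fell 8.21-fold to 15.1 ± 0.956 CPM with overexpression, against 124 ± 1.38 CPM in controls. Osgin1 fell to 49.9 ± 2.53 CPM with overexpression, against 117 ± 4.79 CPM in controls. Gstp1 fell to 89.0 ± 3.49 CPM with overexpression, against 145 ± 8.19 CPM in controls, a log2 fold change of -0.70 that shrank to -0.10 with the length trend removed (edgeR adjusted p = 0.0221); its close paralog may share reads. Akr1b8, an aldo-keto reductase, was called lower at -0.62 and stood at 0.00, not called, with the length trend removed. The exporter gene Abcc1 rose, to 203.5 ± 2.61 CPM with overexpression, against 84.7 ± 2.69 CPM in controls, a log2 fold change of 1.26, or 0.67 with the length trend removed. Of the 4 genes for superoxide dismutases and catalase, 2 were called higher and 2 lower (42.1% and 43.9% over all tested genes). With upper quartile scaling 1 was higher and 3 lower, and with the length trend removed 1 higher and 2 lower. Sod1 fell to 189 ± 4.04 CPM with overexpression, against 340.5 ± 12.7 CPM in controls, Sod3 to 0.251 ± 0.164 CPM with overexpression, against 2.87 ± 0.497 CPM in controls, and Sod2, the mitochondrial enzyme, was called higher at 96.7 ± 4.03 CPM with overexpression, against 68.3 ± 2.76 CPM in controls, but not with the length trend removed (0.08). Cat was called higher at 0.11 and turned to -0.12, called lower, with upper quartile scaling.

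The relatives of Txnip fell with it. Of 6 tested genes in the list of relatives and regulators 4 fell and 1 rose (median -1.64), where 43.9% and 42.1% of all tested genes did. With the length trend removed 5 fell and 1 rose (median -1.32), where 42.3% and 43.0% of all tested genes did. The 4 that fell under TMM scaling were the alpha-arrestin genes. Arrdc4, its closest relative and like it a known target of MondoA, fell 10.5-fold, with 2.81, 2.77 and 3.73 CPM in the overexpression libraries and 31.3, 33.4 and 33.6 CPM in the control libraries. The Arrdc4 promoter held the antioxidant core once and the carbohydrate response pair 0 times. Arrdc1 and Arrdc2 averaged 66.3 ± 2.46 and 8.91 ± 0.396 CPM with overexpression, against 149 ± 1.37 and 38.7 ± 0.874 CPM in controls (SD, n = 3 each). Mlx rose to 36.8 ± 1.87 CPM with overexpression, against 22.4 ± 0.724 CPM in controls, and Mlxip was at 77.8 ± 2.83 CPM with overexpression and 73.4 ± 3.60 CPM in controls, not called (0.08, and -0.25 and called lower with the length trend removed).

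In the authors' deposited table, 7 of the 10 genes have an adjusted p under 0.05, all but Keap1, Hmox1 and Srxn1. The share of all genes under 0.05 there was not worked out. In the edgeR test used here 86.0% of all tested genes were called, so the 7 are not read as setting these genes apart. Keap1 has an adjusted p of 0.160 in the authors' deposited table, whose header names its groups only A and B, so its direction was not used.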

How the data were processed

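Polyadenylated RNA of 6 PAM212 libraries was analysed, 3 with miR-28-3p overexpression and 3 controls, grouped by their titles. The authors deposited raw read counts per gene and FPKM values, per the file headers, and each nonzero FPKM equalled the count divided by gene length and library total to within 4.04e-12 percent. A further deposited table gives, per the file headers, an adjusted p-value for group B against group A. The header does not say which group is which, so its fold changes and group means were not used. HISAT2, HTSeq and DESeq and the build mm9 are named in the submitters' processing notes without versions or roles. Of 21936 listed genes 21617 have the coordinates of GENCODE M21 on GRCm38, all 10 genes studied among them, so GRCm38 is used here.

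Counts were tested in edgeR 4.0.16 (R 4.3.3; filterByExpr with a minimum count of 10, TMM, robust quasi-likelihood F test, Benjamini-Hochberg over 11809 genes). The SE is the size of the log2 fold change divided by the square root of F. The fit was also run on simulated counts with 200 genes changed, as many up as down, and no trend on gene length. In the data 86.0% of tested genes were called and gene length moved with the groups. The simulation therefore cannot say whether the scaling is right here. Alternatives were other scalings, no filter, DESeq2 1.42.0, limma 3.58.1 on log2(FPKM + 1) and log2(FPKM + 0.1), a minimum change of 1.5-fold, a loess trend on log2 gene length removed through offsets, a replicate block and leaving out each library. A count of 0 allows up to 3 counts, or 0.183 to 0.210 CPM at these depths; this covers counting error only, since PCR copies are not separate molecules. Replicate pairs differed by more than sampling noise, with a mean chi-square per gene of 1.87 to 2.64.

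The 10 genes and the pathway lists were chosen with earlier results of these data known. From each list the 4 genes with the highest mean FPKM, the largest rise and the largest fall are named. Gss is named besides these, as the last enzyme of glutathione synthesis. Nnt has 2 rows, of which the one with counts was used, and it was not tested. Where 2 rules name a gene it is given once.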

Additional observations from a re-analysis of the deposited data

How the results depend on the processing

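Over 16 alternatives for each of the 10 genes, 141 values kept their direction and side of the threshold, 10 lost the call (all of them Keap1), 4 gained one (Hmox1 and Srxn1, each with upper quartile scaling and with the length trend removed) and 7 changed sign, 2 of which also gained a call. Hmox1 was at -0.21 with upper quartile scaling, -0.08 with library totals, -0.07 and -0.08 in limma with a pseudocount of 1 and 0.1, and -0.01 to 0.06 over the fits that leave out 1 library, the lowest without control replicate 2. Srxn1 was at 0.30 with the length trend removed and -0.07 to 0.03 over those fits, the highest without control replicate 2. With the length trend removed 5 of the 10 genes were called higher. Leaving out 1 library at a time gave 7 to 8 called genes, 3 higher and 4 to 5 lower, and 30 to 32 pathway genes higher and 53 to 55 lower; calls over all genes ran from 10016 to 10118 against 10159. The log2 differences of the within-library ratios ran from -0.88 to -0.82 for Nfe2l2 over Keap1, -0.44 to -0.31 for Gclm over Gclc, -1.94 to -1.88 for Slc7a11 over Slc3a2, -5.74 to -5.59 for Txnip over Txnrd1 and -0.43 to -0.33 for Srxn1 over Prdx1. Against a 1.5-fold minimum 11 pathway genes rose and 40 fell, where 31 rose and 54 fell without it, and 5947 of all genes were called, which follows from the stricter hypothesis. With upper quartile scaling the all-gene median shifted by -0.23, and 38.6% of calls were higher, against 49.0% with TMM.

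Of the 93 tested pathway genes, 12 changed sign with upper quartile scaling, 4 with library totals, 4 in limma with either pseudocount, 13 with the length trend removed and 1 without control replicate 2. Among those named in the text these were, with upper quartile scaling Cat (-0.12), Fech (-0.05), Mlxip (-0.15) and Txn1 (-0.04), with library totals Mlxip (-0.01), in limma Mlxip (-0.01 with either pseudocount), and with the length trend removed Fech (-0.38), Gpx1 (0.53), Hmox2 (0.31), Idh1 (0.29), Mlxip (-0.25) and Slc48a1 (0.09). In limma on log2(FPKM + 1) some low genes moved by over 1.5-fold, Blvrb to -2.62, Arrdc4 to -2.43 and Sod3 to -0.75. With the pseudocount of 0.1 Blvrb was at -3.58 and Arrdc4 at -3.34, near their edgeR values of -3.64 and -3.39. The cause was not tested. The replicate block gave 10116 calls over all genes and changed no call on the 10 genes. Same-numbered libraries had correlations of deviations of -0.00479, -0.00307 and -0.0309, and the other pairs -0.0157 to 0.0216. No pairing by number is visible in these values, but they cannot exclude that same-numbered libraries were made together.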

Other observations

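The genes whose profile over the 6 libraries lay nearest to that of a member were sought among 10017 tested genes with at least 5 CPM on average, by the Euclidean distance of log2 CPM centred on each gene's mean. Nearest to Nfe2l2 were Rassf3 at a distance of 0.0457, with 28.5 CPM with overexpression and 55.4 CPM in controls, Slc12a9 at 0.0493 and Arhgef2 at 0.0498. Nearest to Txnip were Tcp11l2 at 0.289, with 1.59 CPM with overexpression and 42.3 CPM in controls, Xaf1 at 0.335 and Aldh3a1 at 0.356, with 3.22 CPM with overexpression and 98.9 CPM in controls. With 2 groups of 3, likeness of this kind is mostly likeness of the fold change, and it says nothing of shared control.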
